A study of Homo sapiens with 2 samples.

Results

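The mitochondrial rRNA unit is the stretch of mitochondrial DNA that encodes both mitochondrial ribosomal RNAs together with the transfer RNAs at its start, middle and end. Its members were the table rows named MT-TF, MT-RNR1, MT-TV, MT-RNR2 and MT-TL1, which are 5 of the 37 mitochondrial rows and of 61554 rows in all. They were chosen by name and position, not by their counts. The comparison was between 2 ribosome profiling libraries of HEK293T, a human embryonic kidney cell line. The culture of the library called RiboW received a reporter plasmid in which mCherry and EGFP are linked by T2A and EGFP carries a TCG codon at a chosen site, and that of RiboWo did not. Cells of both cultures, labelled WT, also received the plasmid for the synthetase TetRS with 12 U6-driven copies of a tRNA that has the anticodon CGA, and both were given TetBu. They expressed the constructs for 30 h in dishes of 15 cm and spent 1 min in 0.1 mg/mL cycloheximide before collection. Each group was 1 library of 1 transfected culture, with 2519301 counts in RiboW and 3151403 in RiboWo. Both cultures received the tRNA plasmid, but TetRS, encoded on it, had 30286 counts in RiboW and 59723 in RiboWo, a TMM log2 ratio of -1.11. The added reporter and unequal expression from the TetRS and tRNA plasmid therefore cannot be told apart in this design.

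Mitochondrial ribosomes are built on 1 small and 1 large rRNA that mitochondria encode themselves, while all of their proteins are encoded in the nucleus. The rRNAs and most mitochondrial messages are cut out of long heavy-strand transcripts, in which tRNAs punctuate the reading order and are removed at both ends by dedicated nucleases. In human mitochondria the valine tRNA also serves as a structural part of the large ribosomal subunit, in the place that another small RNA takes in cytosolic ribosomes. Ribosome profiling sequences RNA that resists nuclease within ribosomes, so rRNA and tRNA reads in such libraries are pieces of these RNAs themselves and do not measure translation. In bulk libraries, fewer mitochondria or cells and less RNA in each cannot be told apart.

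The 5 genes lie on the + strand of the mitochondrial chromosome, MT, and the table's coordinates equal those of the RefSeq table for GRCh38.p14 in all 5. MT-TF, the phenylalanine tRNA (ENSG00000210049), spans 577 to 647 and is 71 nt long. MT-RNR1, the rRNA of the small subunit (ENSG00000211459), spans 648 to 1601, or 954 nt. MT-TV, the valine tRNA (ENSG00000210077), spans 1602 to 1670, or 69 nt. MT-RNR2, the rRNA of the large subunit (ENSG00000210082), spans 1671 to 3229, or 1559 nt. MT-TL1, a leucine tRNA that also holds a binding site of the transcription factor MTERF1 (ENSG00000209082), spans 3230 to 3304, or 75 nt. Each gene ends 0 nt before the next begins, and none overlaps another row of the table. A read across a border therefore touches 2 genes, and how the counting treated such reads was not stated in the labels or file headers.

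Read density differed steeply between the members, and in the same order in both libraries. In deposited RPKM, reads per kilobase of gene length, scaled by the authors' library sizes, MT-RNR1 stood at 378022 in RiboW and 510388 in RiboWo. MT-TF, directly upstream, stood at 204488 RPKM in RiboW and 205403 in RiboWo. MT-TV, between the rRNAs, stood at 34115 RPKM in RiboW and 27669 in RiboWo. The order of density was thus MT-RNR1, MT-TF, MT-TV, MT-RNR2 and MT-TL1 in each library, and neighbours in that order differed by more than counting error. MT-RNR2 stood at 20697 RPKM in RiboW and 19569 in RiboWo, and MT-TL1 at 0 RPKM in RiboW and 4.83 in RiboWo. Per nucleotide, MT-RNR1 was 18.3 times as dense as MT-RNR2 in RiboW and 26.1 times as dense in RiboWo.

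**Figure D1:**
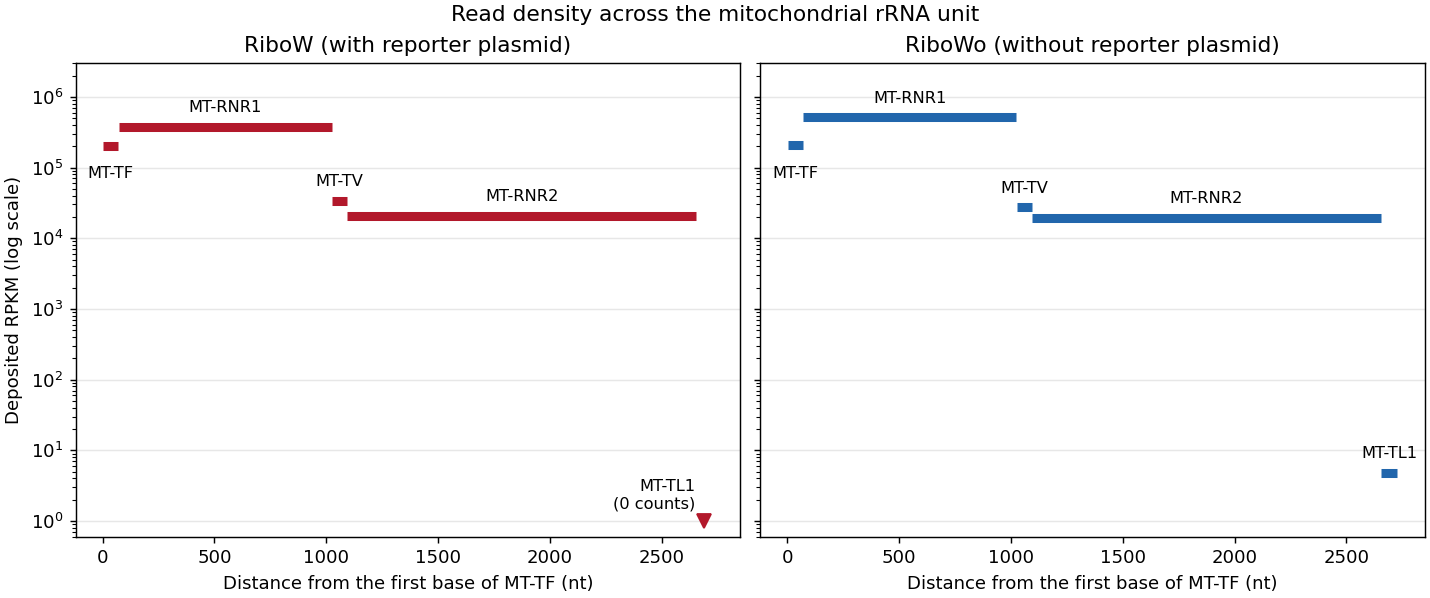
Deposited RPKM (log axis) of each gene across the mitochondrial rRNA unit, against distance from the first base of MT-TF in nt, in RiboW on the left and in RiboWo on the right; each bar spans 1 gene. MT-RNR1 stood highest in both libraries, and MT-TL1 had 0 counts in RiboW (triangle at the bottom) and 1 count in RiboWo.

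The share of all counts that the unit took was close in both libraries. After TMM scaling, or relative to the median coding gene, its summed level was lower in RiboW, mostly through MT-RNR1. Its 5 rows summed to 1177471 counts in RiboW and 1475178 in RiboWo. That was 46.7% of all counts in RiboW, with an exact 95% interval of 46.7 to 46.8%, and 46.8% in RiboWo, at 46.8 to 46.9%. After TMM scaling, the method used for single genes below, the summed log2 ratio of RiboW over RiboWo was -0.457 (-0.461 to -0.454). Relative to the median coding gene it was -0.57, and MT-RNR1 made up most of the sum. The other 4 members summed were at -0.011 (-0.022 to -0.0005), or -0.12 relative to the median coding gene. Intervals here and below cover counting error only, take every read as independent and contain no spread between cultures. Among counts of the 37 mitochondrial rows, the unit took 88.2% in RiboW and 91.3% in RiboWo. Genes of the nuclear rRNA biotype, 53 rows, had 20 counts in RiboW and 19 in RiboWo. Outside the unit, the reporter made up 10.8% of counts in RiboW and 0.0127% in RiboWo. MIR148A, a microRNA gene, made up 3.79% in RiboW and 19.5% in RiboWo.

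MT-RNR1 had 1036272 counts in RiboW and 1345316 in RiboWo, and was the most counted row of both libraries. MT-RNR2 had 92716 counts in RiboW and 84292 in RiboWo, and ranked 4 in both. MT-TF had 41719 counts in RiboW and 40294 in RiboWo, rank 10 in both. Raw counts were thus higher in RiboW for MT-RNR2 and MT-TF, and lower for MT-RNR1, in a library with fewer counts in all. MT-TV had 6764 counts in RiboW and 5275 in RiboWo. MT-TL1 had 0 counts in RiboW and 1 in RiboWo. For the count of 0 in RiboW, the exact interval of the share reached up to 0.000146%. A limit of 3 counts equals 0.000119% there. In RiboWo, 1 count was a share of 3.2e-05% (exact interval 8.0e-07 to 0.00018%). MT-TL1 was thus at or under the limit of 3 counts in both libraries, and no ratio between the libraries is given for it.

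Within the unit, MT-RNR1 took a smaller share in RiboW, at 88.0% of the unit's counts (87.9 to 88.1%), against 91.2% in RiboWo (91.2 to 91.2%). MT-RNR2 took 7.87% in RiboW (7.83 to 7.92%) and 5.71% in RiboWo (5.68 to 5.75%). MT-TF took 3.54% in RiboW (3.51 to 3.58%) and 2.73% in RiboWo (2.71 to 2.76%). MT-TV took 0.574% in RiboW (0.561 to 0.588%) and 0.358% in RiboWo (0.348 to 0.367%). Shares of the unit's counts thus differed by more than counting error in all 4 genes that had enough counts. At counts this high even small differences do so, and such intervals are common in this table, as given below. Shares also add up to the whole unit, so a lower share of MT-RNR1 goes with higher shares of the rest. The 4 differences are therefore not separate results.

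Pairs of members were then compared, since the ratio of 2 rows within a library does not depend on how the libraries are scaled. The 6 pairs rest on 4 genes and are not independent of each other. At these counts, Wald intervals from the 4 counts of each pair, which cover counting error only, exclude 0 even for small differences, as they did in all 6, so the sizes are what is described here. MT-RNR2 over MT-RNR1 was 1.43 times as high in RiboW as in RiboWo (1.41 to 1.44), a log2 difference of 0.51. It is a ratio of reads from pieces that resisted nuclease. The balance of the rRNAs or of the subunits themselves was not measured. MT-TF over MT-RNR1 was 1.34 times as high (1.33 to 1.36). MT-TV over MT-RNR1 was 1.66 times as high (1.61 to 1.73), the widest of the 6 pairs. The 3 other genes thus all stood higher against MT-RNR1 in RiboW. Among themselves they differed less. MT-TV over MT-TF was 1.24 times as high (1.19 to 1.29), MT-TV over MT-RNR2 1.17 times (1.12 to 1.21) and MT-RNR2 over MT-TF 1.06 times (1.04 to 1.08). With 1 library per group, none of these differences has a replicate check, and each is one between 2 libraries.

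To set the members against the rest of the table, counts were scaled by the TMM method over all rows, and log2 ratios were taken of RiboW over RiboWo. MT-RNR1 was at -0.51 (-0.512 to -0.505), or 0.703 times its scaled count in RiboWo. MT-TF was at -0.08 (-0.10 to -0.06) and MT-TV at 0.23 (0.17 to 0.28). MT-RNR2 was at 0.005 (-0.008 to 0.019), the 1 counted member whose interval included 0. None of these 4 reached 2-fold. Over the 1387 rows with a summed count of at least 100, plasmid rows left out, 2.88% were at least 2-fold higher and 4.04% at least 2-fold lower with an interval that excluded 0.

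An interval that excludes 0 is common in this table: it lay above 0 in 26.7% of these rows and below 0 in 19.0%. The 3 such intervals among 4 members are therefore not a result about the unit. The 152 rows with at least 1000 counts spread with an SD of 0.73 around a median of -0.08, so all 4 members lay within 1 SD of that median. Of the 24 rows with at least 10000 counts, plasmids left out, 8 had a lower ratio than MT-RNR1. The scaling sets the sign of MT-RNR2 and MT-TF. By total counts MT-RNR1 was at -0.05, MT-TF at 0.37, MT-RNR2 at 0.46 and MT-TV at 0.68, each 0.46 above its TMM value.

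**Figure D2:**
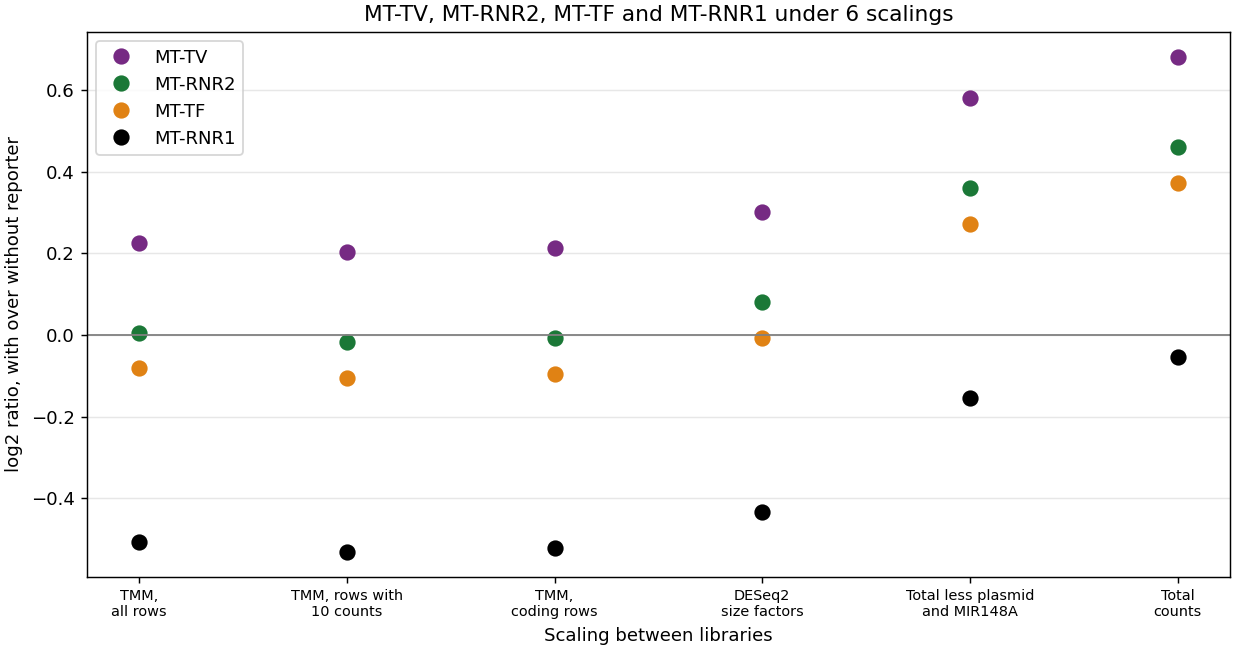
The log2 ratio RiboW over RiboWo (vertical axis) of MT-TV, MT-RNR2, MT-TF and MT-RNR1 under 6 scalings between libraries. Each scaling moves all 4 points by the same amount, so their order and spacing stay fixed. MT-RNR2 and MT-TF each lie below 0 under some scalings and above it under others, and MT-RNR1 lies below 0 and MT-TV above 0 under all 6.

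Relative to the median of the 1060 protein-coding genes with at least 100 counts, which was 0.11, MT-RNR1 lay at -0.62, MT-TF at -0.19, MT-RNR2 at -0.11 and MT-TV at 0.11. This difference does not move with the scaling. Of these coding genes, 9.43% had a lower ratio than MT-RNR1, 31.0% a lower one than MT-TF, 39.9% a lower one than MT-RNR2 and 60.4% a lower one than MT-TV.

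The other mitochondrial genes gave a closer comparison, since they come from the same genome. The 13 mitochondrial messages, all measured, had a median log2 ratio of -0.34, from MT-ND2, a subunit of respiratory complex I, at -0.69 to MT-ND4, another one, at 0.09. MT-RNR1 lay inside that range, with 4 messages below it. Of the 19 tRNA genes outside the unit, 12 were measured, with a median of -0.11, from the glycine tRNA MT-TG at -0.29 to the glutamate tRNA MT-TE at 0.74. MT-RNR1 lay below all 12 of them, while MT-TF and MT-TV lay within their range, and 4 of the 12 lay above MT-TV. None of these 25 rows passed 2-fold either way.

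**Figure D3:**
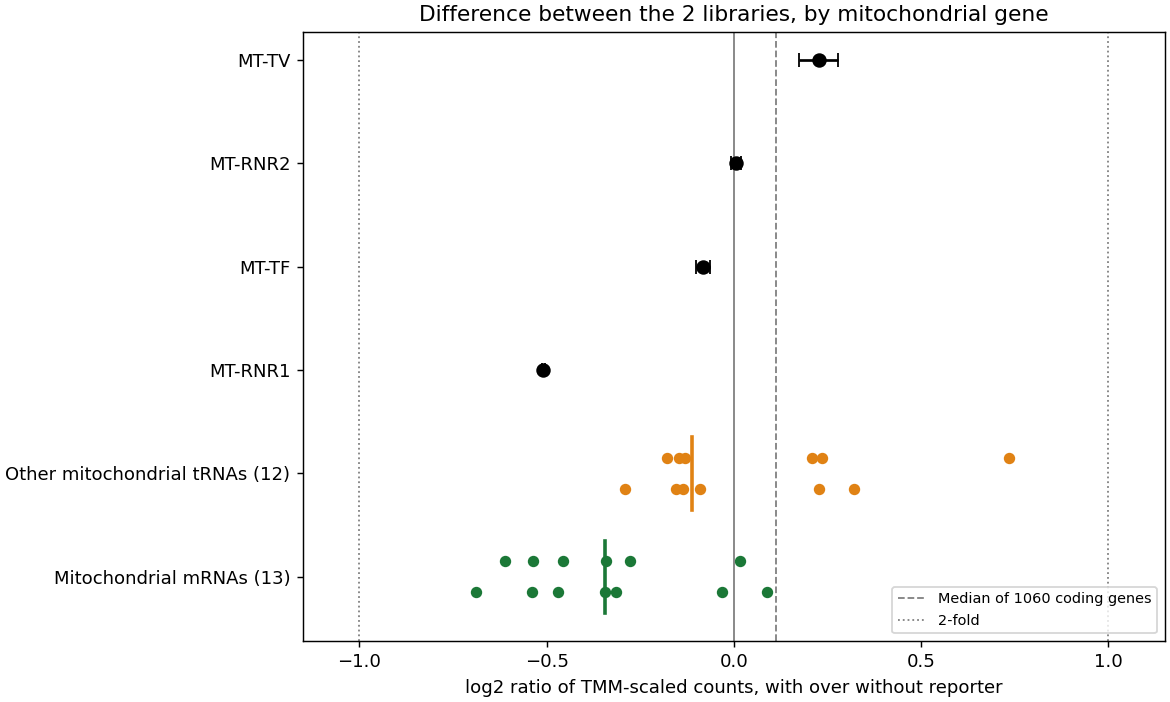
Log2 ratio of TMM-scaled counts RiboW over RiboWo (horizontal axis) for MT-TV, MT-RNR2, MT-TF and MT-RNR1, with exact 95% counting intervals, above the 12 other measured mitochondrial tRNAs and the 13 mitochondrial messages, 1 point per gene with a bar at each median. MT-RNR1 at -0.51 lies below every tRNA shown and within the range of the messages.

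As a share of all mitochondrial counts, MT-RNR1 stood at 77.6% in RiboW (77.5 to 77.7%) and 83.3% in RiboWo (83.2 to 83.3%). MT-RNR2 stood at 6.94% in RiboW (6.90 to 6.99%) and 5.22% in RiboWo (5.18 to 5.25%). Set against all other mitochondrial rows, MT-RNR1 had a log2 difference of -0.52 (-0.53 to -0.51), RiboW minus RiboWo. MT-RNR2 was at 0.44 (0.42 to 0.45) by the same measure, MT-TF at 0.33 (0.31 to 0.35) and MT-TV at 0.64 (0.58 to 0.69). MT-RNR1 is itself most of what the other 3 were set against here, so these values are not independent of its own.

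The 3 tRNAs of the unit stood far apart among the 22 mitochondrial tRNAs. By RPKM, MT-TF ranked 3 in RiboW and 2 in RiboWo. MT-TV ranked 5 in RiboW and 6 in RiboWo. MT-TL1 had rank 18 in both libraries, in the group of tRNA genes with hardly any counts. The measured tRNAs outside the unit had a median of 13539 RPKM in RiboW and 12500 in RiboWo, so MT-TF and MT-TV both lay above that median in each library.

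**Figure D4:**
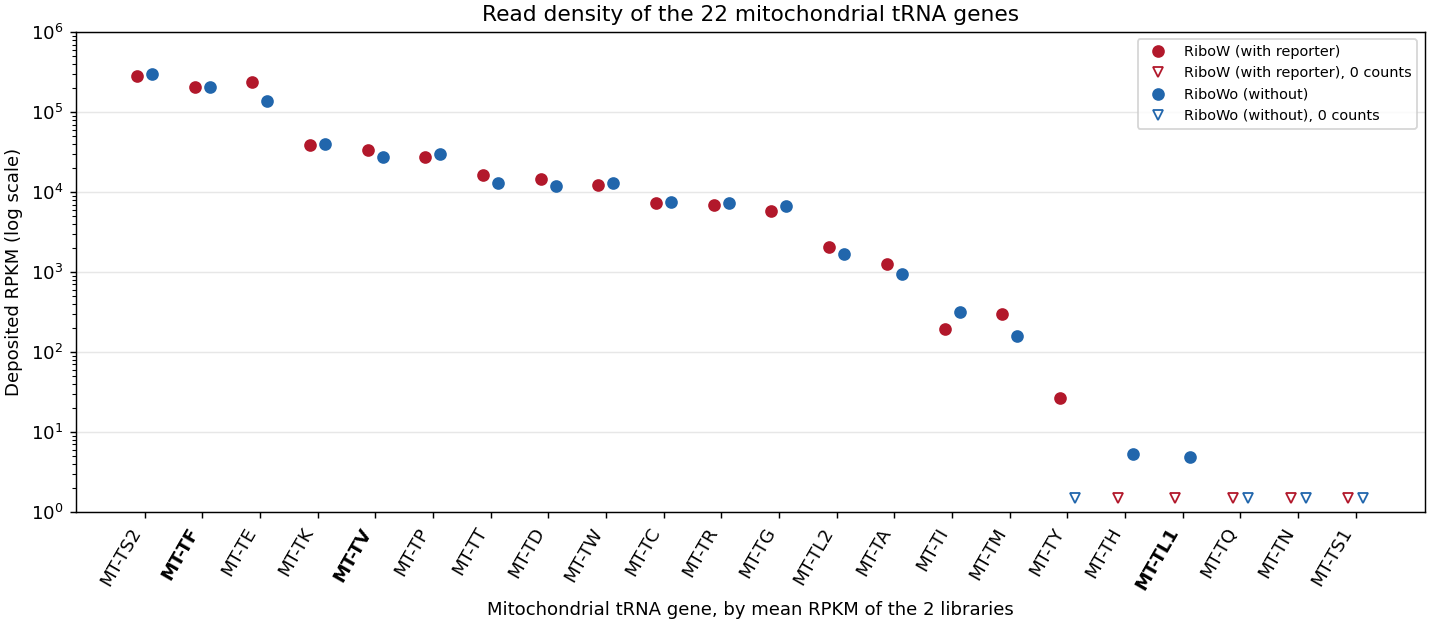
Deposited RPKM (log axis) of the 22 mitochondrial tRNA genes, ordered by their mean over both libraries, RiboW to the left of RiboWo and genes of the rRNA unit in bold; open triangles mark 0 counts. MT-TF and MT-TV lie among the 6 densest, and MT-TL1 among 6 genes with at most 5 counts in all.

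The near absence of MT-TL1 contrasted with both of its neighbours. In RiboW, MT-RNR2, which ends at the base before it, was at least 1487-fold denser per nucleotide than MT-TL1, taking 3 counts in that library as the floor. MT-ND1, the complex I subunit gene downstream, had 2196 counts and was at least 57.4-fold denser by the same floor. In RiboWo, MT-RNR2 was 4055 times as dense as the 1 count of MT-TL1, with a counting interval of 728 to 160170. MT-TL2, the other mitochondrial leucine tRNA, had 426 counts in RiboW and 330 in RiboWo. It was looked up after the value of MT-TL1 was seen, and a leucine tRNA was thus counted in both libraries.

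MT-TL1 was not alone in this. Of the 22 tRNA genes, 6 had at most 5 counts over both libraries, and they are named here after their values were seen. MT-TQ, MT-TN and MT-TS1 had 0 counts in both libraries, MT-TH had 0 in RiboW and 1 in RiboWo, and MT-TY had 5 in RiboW and 0 in RiboWo. On the strand column of the table, 4 of the 6 are light-strand genes, and MT-TL1 and MT-TH are the 2 heavy-strand ones. Whether the counting used the strand of reads was not stated either, so for genes of both strands a read from the opposite strand may or may not have been counted. Fragment length, base modification and read filtering were not measured in the files, and their part in these low counts was not tested.

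Genes with a ratio like those of the rRNAs were of mixed kinds. Among the 24 rows with at least 10000 counts, over these 2 libraries, the 3 nearest to MT-RNR1 in log2 ratio were the microRNA gene MIR10B at -0.54, the complex I gene MT-ND5 at -0.47 and the spliceosomal RNA gene RNU5B-1 at -0.42. The 3 nearest to MT-RNR2 were MT-CO2, a subunit of cytochrome c oxidase, at -0.03, MIR146B at -0.08 and MT-TF. One ratio per gene is all that 2 libraries give, so likeness here is a single shared value.

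Nuclear genes that make, cut, modify or bind these RNAs were thinly counted. They were put in 6 lists, of which 9 genes reached a summed count of 100, and none passed 2-fold, against 2.83% of coding genes at least 2-fold higher and 0.566% at least 2-fold lower. Mitochondrial transcription and DNA maintenance had 217 counts in RiboW and 191 in RiboWo over 12 genes, 0.01 on the log2 scale when set against all coding counts (-0.27 to 0.30), with no gene measured. Values of a whole list below are on that scale, while those of single genes are TMM log2 ratios as for the rRNAs. In the transcription list TFAM, which packages mitochondrial DNA and starts transcription, had 35 counts in RiboW and 48 in RiboWo, at -0.59 (-1.26 to 0.07). The polymerase gene POLRMT had 12 and 8, and MTERF1 had 3 and 7, in the same order of libraries. The intervals of these 3 genes included 0.

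RNA processing and decay had 642 counts in RiboW and 632 in RiboWo over 15 genes, at -0.15 (-0.31 to 0.01). Its 3 measured genes had a median of -0.27, beside 0.11 over all measured coding genes. LRPPRC, which stabilises mitochondrial messages, was at 0.36 (-0.05 to 0.79), and its partner SLIRP at -0.27 (-0.52 to -0.01). GRSF1, an RNA-binding protein of mitochondrial RNA granules, had 49 counts in RiboW and 74 in RiboWo, at -0.73 (-1.28 to -0.19).

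Modification of the rRNAs and assembly of the mitochondrial ribosome had 332 counts in RiboW and 254 in RiboWo over 22 genes, at 0.22 (-0.02 to 0.46). MTG2, a GTPase of large subunit assembly, was at 0.43 (-0.13 to 1.00) and the helicase gene DHX30 at 0.26 (-0.24 to 0.76). TFB1M, which methylates the small subunit rRNA, had 15 counts in RiboW and 4 in RiboWo, too few for a measured gene. Its ratio was 1.77 (0.12 to 3.82). This was the only interval to exclude 0 among 12 factors given by their counts, so it is not taken as a result. ERAL1, a chaperone of the small subunit rRNA, had 11 and 9 counts in the same order of libraries. NSUN4, a methyltransferase of the small subunit rRNA, had 16 and 24. MRM1, MRM2 and MRM3, which methylate the large subunit rRNA, were near the floor. MRM1 had 6 and 1 counts, MRM3 had 5 and 5, and MRM2 had 0 in both libraries. Charging and modification of mitochondrial tRNAs had 281 counts in RiboW and 255 in RiboWo over 11 genes, at -0.03 (-0.28 to 0.22). TRMT5, a tRNA methyltransferase, was its 1 measured gene, at -0.70 (-1.16 to -0.24). LARS2, the synthetase that charges mitochondrial leucine tRNAs, had 36 counts in each library. FARS2, which charges the phenylalanine tRNA, had 3 in RiboW and 7 in RiboWo, and VARS2, which charges the valine tRNA, had 1 and 0.

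Genes listed as small subunit proteins had 667 counts in RiboW and 523 in RiboWo over 34 rows, at 0.18 (0.01 to 0.35). This list was chosen by gene symbol. Binding to MT-RNR1 and place in the subunit were not checked for each row. MRPS2 was the 1 measured gene of the list, at 0.56 (0.07 to 1.05). Of the 6 lists, only this one had a pooled interval that excluded 0. Such intervals cover counting error only and are common in this table, so neither value is taken as a result. Those of the large subunit had 1028 counts in RiboW and 953 in RiboWo over 49 genes, which include MRPL12 of the transcription list, at -0.06 (-0.19 to 0.07), with MRPL21 at 0.27 (-0.17 to 0.72) and MRPL18 at -0.27 (-0.77 to 0.22). Whether the protein lists differed from each other was not tested.

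The sequence of MT-RNR2 also occurs in nuclear DNA, where the MTRNR2L genes are copies of it. These 13 rows had 195 counts in RiboW and 246 in RiboWo, which equalled 0.210% of the MT-RNR2 counts in RiboW and 0.292% in RiboWo. By name, 0 rows of the table were nuclear pseudogenes of MT-RNR1, MT-TF, MT-TV or MT-TL1, and copies without a row of their own were not analysed here. How reads with several matches were counted was not stated in the labels or file headers, so counts of MT-RNR2 and of its copies are uncertain to an unknown degree.

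Identity of the cells was checked with small marker lists. Each of the 10 genes of a list for HEK293 had a count in at least 1 library, and 3 of them were measured. Some had only 1 count over both libraries. The list, led by VIM, had 345 counts in all in RiboW and 264 in RiboWo. Whether these genes tell HEK293 from other cells was not tested. Leukocyte markers had 5 counts in RiboW and 20 in RiboWo, with PTPRC and CD3E at 0 in both. In the same order of libraries, CORO1A had 1 and 14 and LCP1 0 and 6, while CD14 had 3 and 0 and LYZ 1 and 0. Fibroblast markers had 17 and 55, liver and serum markers 1 and 25, and erythroid markers 0 and 3, in the same order. Summed over each list, markers of other cells thus had more counts in RiboWo, at small counts. CD14, LYZ and the fibroblast marker LUM, with 2 and 0, went the other way. The part of these markers in the ratios of the rRNA unit was not tested.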

How the data were processed

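Whole-number counts per gene, 1 column per library, were used as deposited, and TopHat2 2.0.12 and HTSeq 0.9.1 are named, without roles, per the submitters' processing notes. Those notes list GRCh37 and hg19, but all 37 mitochondrial rows have the coordinates of the RefSeq GRCh38.p14 table. RPKM values deposited by the authors equalled count over length and over 1 library size, 2873483 in RiboW and 2762965 in RiboWo. These sizes equal DESeq2 size factors times the geometric mean of both totals. Nothing in the sources used here states how they were made.

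Libraries were scaled with edgeR 4.0.16 (TMM) in R 4.3.3, on all 61554 rows. Ratios have exact Clopper-Pearson intervals at 95%, and pairs of genes Wald intervals. A row was measured at a summed count of at least 100, and passed at 2-fold with an interval excluding 0. With 1 library per group there is no test and no p-value. DESeq2 1.42.0 size factors, total counts, coding rows alone, other minimums and the RPKM with 0.1 or 1 added were alternatives. Python 3.11.15, scipy 1.17.1 and pandas 2.3.3 were used. The ratio step was tested on simulated counts with counting error only and known library sizes. Neither the TMM scaling nor spread between cultures was tested by that simulation.

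Members and lists were chosen with earlier results of these data known. Text names all members, the highest and lowest measured gene of each list or class (all where at most 3), the 3 rows nearest to each rRNA and 12 further factors by their counts. The other tRNA genes so marked, VIM, the leukocyte markers and LUM were chosen after their values were seen.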

Additional observations from a re-analysis of the deposited data

How the results depend on the processing

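Each group held 1 library, so no replicate could be left out, and depth limits MT-TL1 and most nuclear list genes. No paired analysis was possible because each group had 1 library and the result comes from no test. The 6 ratios between members are the same from the deposited RPKM, which scale each library by 1 number. By DESeq2 size factors, MT-TF was at -0.0064, MT-RNR1 at -0.43, MT-TV at 0.30 and MT-RNR2 at 0.081, and the deposited RPKM with 0.1 or 1 added gave the same values as printed. By total counts they were at 0.37, -0.054, 0.68 and 0.46, in the same order of genes, and by totals without plasmid rows and MIR148A at 0.27, -0.15, 0.58 and 0.36. With TMM over rows of at least 10 counts, MT-TF was at -0.10, MT-RNR1 at -0.53 and MT-RNR2 at -0.018, and over coding rows MT-RNR1 was at -0.52. The remaining values of these 2 settings lay inside the counting intervals. Relative to coding genes of at least 20 counts, MT-TF was at -0.14, MT-RNR1 at -0.57 and MT-RNR2 at -0.055, and with a minimum of 1000 MT-RNR1 was at -0.61. The cause of these shifts is the scaling or the reference set itself.

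Of the 1387 rows with at least 100 counts, plasmid rows left out, 40 were at least 2-fold higher and 56 lower. Over the same rows these became 199 and 148 at 1.5-fold, 239 and 30 by total counts, and 63 and 53 by DESeq2 size factors. A minimum of 20 counts gave 479 and 517 of 7021 rows, and a minimum of 1000 gave 4 and 17 of 152 rows. Of the 1060 coding rows with at least 100 counts, 30 were higher and 6 lower. Over the same coding rows these became 156 and 66 at 1.5-fold, 190 and 0 by total counts, and 46 and 6 by DESeq2 size factors. A minimum of 20 gave 421 and 412 of 6296 coding rows, and a minimum of 1000 gave 2 and 0 of 50. Against all counts without plasmid rows, the pooled log2 ratio was 0.66 for transcription, 0.50 for processing, 0.87 for rRNA modification and assembly, 0.62 for tRNA charging, 0.83 for small and 0.59 for large subunit proteins. This reference moves all 6 lists up by the same amount. Protein-coding rows as a whole took 13.7% of all counts in RiboW and 9.77% in RiboWo. These values therefore do not show a rise of the lists among coding genes.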

Other observations

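Among the nuclear copies of MT-RNR2, which carry an open reading frame like that of the peptide humanin, MTRNR2L1 had the most counts, with 71 in RiboW and 119 in RiboWo, a log2 ratio of -0.88 (-1.32 to -0.44). MTRNR2L6 had 53 in RiboW and 62 in RiboWo, and MTRNR2L3 had 30 and 13 in the same order, at 1.07 (0.09 to 2.14), so the copies went both ways. The 13 copies pooled were at -0.47 (-0.75 to -0.19). Without MTRNR2L1, left out after seeing the data, the other 12 had 124 counts in RiboW and 127 in RiboWo. Their pooled value was -0.17 (-0.54 to 0.20), still below 0 but with an interval that included it. Leaving out the most counted row, with its ratio of -0.88, was bound to raise the pooled value. Pseudogenes of mitochondrial messages, 402 rows, had 771 counts in RiboW and 911 in RiboWo, at -0.37 (-0.51 to -0.23).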
